A study of Mus musculus with 24 samples.

Results

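Splenic B cells of NOD/ShiLtJ (NOD) mice sorted under the label T2FO were compared with splenic B cells of C57BL/6/J (B6) mice sorted under the label T1. Both groups came from female mice aged 7 weeks, and each was measured on 2 arrays, so the comparison rests on 4 of the 24 arrays of the series. The remaining 20 arrays hold 5 further sorted subsets of each strain. Each array traces back to a pool of 8 mice, and the sort was done in 2 separate experiments, which gave 2 pools per strain. Cells positive for CD3 and CD11b had been depleted, and the subsets were then gated with antibodies to CD93, CD24, CD23, CD21/35, IgM and B220. The groups were chosen by a measured value and not by label: within each strain, the subset with the lowest Cr2 transcript was taken. The pairing was proposed with results of these data known, so Cr2 and the other transcripts of the sort, with Sox4, are given as description and carry no test.

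NOD mice develop autoimmune diabetes, and B cells are needed for the disease as antigen-presenting cells. B cells that leave the bone marrow reach the spleen as transitional cells, which carry CD93 and little CD21, and mature there into follicular cells with more CD21 and CD23 or into marginal zone cells with the most CD21. T1 is the name of the earliest splenic transitional stage, and T2FO that of transitional cells on the way to the follicular fate. Cr2 encodes CD21 and CD35, Cd93 encodes the antigen read by the AA4.1 antibody, and Sox4 encodes a transcription factor of early lymphocytes.

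The values are log2 values centred on the median of each probe set over the 24 arrays, so 0 is the middle of the series and no value is an expression level. For that reason the labelled cell type could not be checked by which B cell transcripts are present, and only differences between groups are given. Each of 18193 genes was read by 1 probe set. Replicates differed by 0.33 in NOD labelled T2FO and by 0.51 in B6 T1 (root mean square SD over genes, n = 2 each), and array medians lay between -0.039 and 0.060.

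Cr2, which set the choice, read -1.39 and -1.19 in NOD labelled T2FO, against -1.83 and -1.62 in B6 T1. The next lowest group of each strain was close to the choice. NOD labelled T3 had -0.66 and -1.17, and its second array lay just above the second NOD labelled T2FO array. B6 T2FO, the B6 group that bears the same label as the NOD arrays, had -0.97 and -0.66. Fcer2a, the CD23 gene, was low on both sides, at -0.75 and -1.66 in NOD labelled T2FO and at -1.70 and -1.42 in B6 T1. All other NOD groups except NOD labelled T1 (-3.11 and -2.85) had Fcer2a values of -0.22 or more, so low Cr2 went with low Fcer2a in the chosen NOD group.

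**Figure D1:**
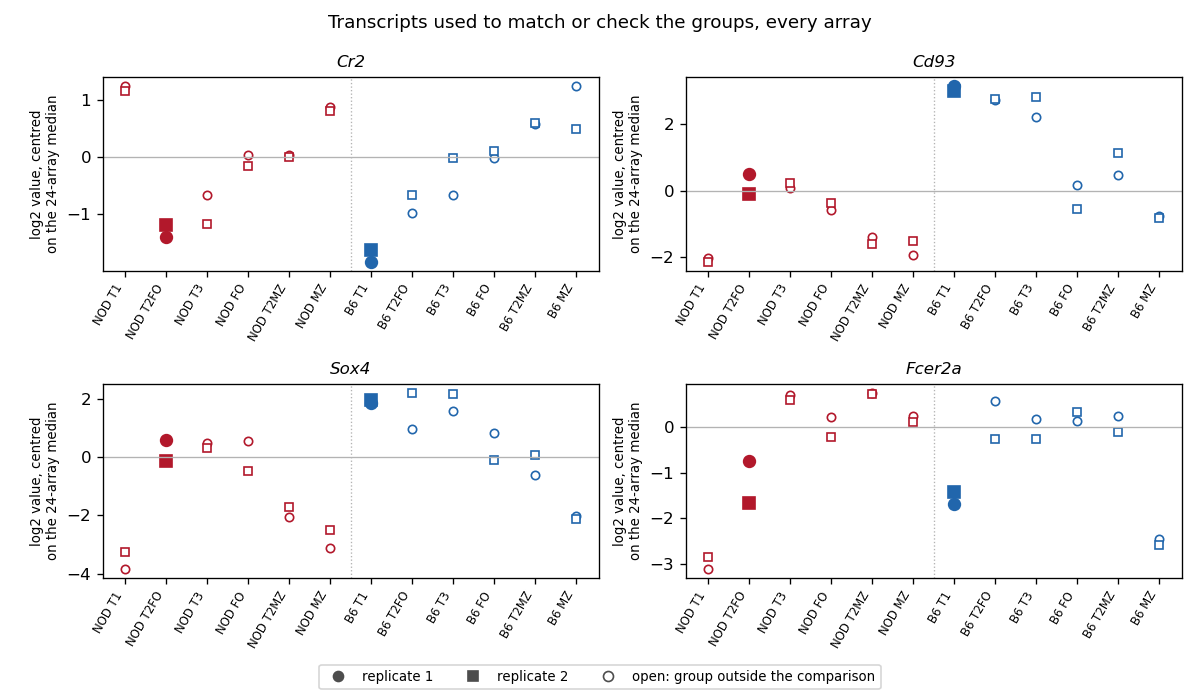
Centred log2 values of Cr2, Cd93, Sox4 and Fcer2a on each of the 24 arrays, NOD groups left of B6 groups, circles for replicate 1 and squares for replicate 2, filled where the group is compared. NOD labelled T2FO and B6 T1 have the lowest Cr2 of their strain, while Cd93 and Sox4 lie lower in NOD labelled T2FO than in B6 T1.

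The markers of immaturity did not lie level. Cd93 read 0.51 and -0.092 in NOD labelled T2FO, against 3.14 and 2.99 in B6 T1, a difference of -2.85. Sox4 read 0.58 and -0.12 in NOD labelled T2FO, against 1.85 and 1.95 in B6 T1, a difference of -1.67. Cd93 and Sox4 were also lower in NOD than in B6 over the other groups, by 2.14 and by 1.86 on the log2 scale, and within NOD the labelled T2FO arrays lay at the upper end. The other 10 NOD arrays had Cd93 values of -2.14 to 0.23 and Sox4 values of -3.83 to 0.54. The first NOD labelled T2FO array was above all of them for both genes, and the second was not. The 4 further probe sets of Cd93 ranged from -3.20 to 0.25 for the same difference, and the 7 further probe sets of Sox4 from -0.34 to 0.20.

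The 3 remaining sort transcripts were read as well. Ighm, the mu heavy chain, was -0.0081 and 0.35 in NOD labelled T2FO, against -1.71 and -0.55 in B6 T1. Ptprc, which encodes B220, was 0.69 and -0.097 in NOD labelled T2FO, against -1.38 and -0.78 in B6 T1. Cd24a differed little, with 0.22 and 0.058 in NOD labelled T2FO and 0.38 and 0.43 in B6 T1. The label names B6 T2FO as partner of the NOD arrays, and the lowest Cr2 names B6 T1. The other transcripts did not name a single partner. Against B6 T2FO, Ighm differed by 0.60, Ptprc by 0.97, Cd24a by -0.079, Cd93 by -2.54 and Sox4 by -1.35. Against B6 T1 these differences were larger, at 1.30, 1.37, -0.26, -2.85 and -1.67. Cr2 differed by -0.47 from B6 T2FO and by 0.43 from B6 T1, and Fcer2a by -1.36 and 0.35. Whether the NOD labels were exchanged or the subsets of NOD differ in these transcripts cannot be told apart from these arrays.

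Whole profiles gave a further description of the match. After the mean of each strain was subtracted, NOD labelled T2FO correlated at 0.48 with B6 T1, at 0.23 with B6 T2FO, at 0.17 with B6 T3, and below 0 with B6 FO, T2MZ and MZ (Pearson's r over 18193 genes, which are not independent points and share the arrays of their group). Taken singly, the first NOD array had 0.46 with B6 T1 and 0.31 with B6 T2FO, and the second had 0.34 and 0.10. NOD labelled T3 was as close to B6 T1, at 0.50, and had 0.50 with B6 T2FO. NOD labelled T1 had -0.43 with B6 T1.

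The B6 arrays carried less signal at the 5' end of the control transcripts. RNA was amplified from the poly(A) tail, so probe sets at the 5' end read long copies only. The 5' beta-actin control read -0.54 and 0.094 in NOD labelled T2FO, against -0.77 and -3.65 in B6 T1. At the 3' end it read 0.14 and 0.0025 in NOD labelled T2FO, against -0.16 and -0.042 in B6 T1. At this 5' control the shortfall thus lay in replicate 2 of B6 T1, while replicate 1 was near the first NOD array. The middle beta-actin control was lower in both B6 T1 arrays, at -0.53 and -1.28, against 0.048 and -0.037 in NOD labelled T2FO. Gapdh was similar at the 5' end, with -0.65 and 0.13 in NOD labelled T2FO and -0.61 and -2.48 in B6 T1, and at its 3' end B6 T1 replicate 2 was low too, at -1.25. Over the series the 5' beta-actin control ranged from -0.54 to 0.79 in 12 NOD arrays and from -4.04 to 0.47 in 12 B6 arrays. The centred values of the B6 T1 replicates correlated at 0.16, and those of the NOD labelled T2FO replicates at 0.43 (Pearson's r over genes). B6 T1 replicate 1 was far below replicate 2 for some genes, such as Malat1 at -6.00 and -0.82. It was above replicate 2 for others, such as H2-Aa at -1.28 and -3.02.

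Of 18193 genes, 326 (1.79%) differed between NOD labelled T2FO and B6 T1 at an adjusted p under 0.05 (limma with Benjamini-Hochberg adjustment). In NOD labelled T2FO 161 were higher (0.885%) and 165 lower (0.907%), and the smallest of these differences was 0.60 on the log2 scale. The count includes Cd93, which is not read as a result. The median difference over all genes was -0.026, with a median standard error of 0.27. The 2 arrays of one group lay wholly on one side of the other group for all 326, but also for 6007 of all genes (33%). Replicates limit the count: 92 genes passed without NOD labelled T2FO replicate 2, 107 without B6 T1 replicate 1, and 158 without B6 T1 replicate 2, of which 136 were among the 326. Of the 43 genes named by rule that passed, 30 still passed without B6 T1 replicate 2 (limma, Benjamini-Hochberg). The others had adjusted p of 0.0520 for Eif2ak2, 0.0561 for Rag1, 0.0590 for Phgdh, 0.11 for Slpi, 0.12 for Fkbp11, Pnn and Ccr9, 0.14 for Mtrex, Rtp4 and Cyp51, 0.18 for Trim30d, 0.20 for Oas2 and 0.21 for Sqle. Fitted on the 4 arrays alone, 1 gene passed, with 1378 at an unadjusted p under 0.05. With the 5' minus 3' beta-actin difference of each array as a covariate, 1861 genes passed, the 326 among them.

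Most of these genes separated the strains in other subsets as well. Over the other 5 groups of each strain, 2759 genes (15.2%) differed between NOD and B6, 1564 higher (8.6%) and 1195 lower (6.57%) in NOD (limma, Benjamini-Hochberg adjusted p under 0.05). Of the 326 genes, 275 (84.4%) passed there with the same sign, 0 with the opposite sign, and these 275 make up 9.97% of the 2759. Those 20 arrays are not part of the comparison but come from the same 4 pools. By label their NOD side holds T1 and not T2FO, and their B6 side holds T2FO and not T1. Where the labels hold, the difference elsewhere therefore mixes subset with strain, as does any test set against it. The remaining 51 genes, 35 higher and 16 lower in NOD labelled T2FO, passed in the matched groups and missed the threshold elsewhere, which by itself does not show that their differences were unequal. A direct test of the matched difference minus the difference elsewhere passed for 5 genes (0.0275%), 2 higher (0.011%) and 3 lower (0.0165%), with 569 at an unadjusted p under 0.05.

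**Figure D2:**
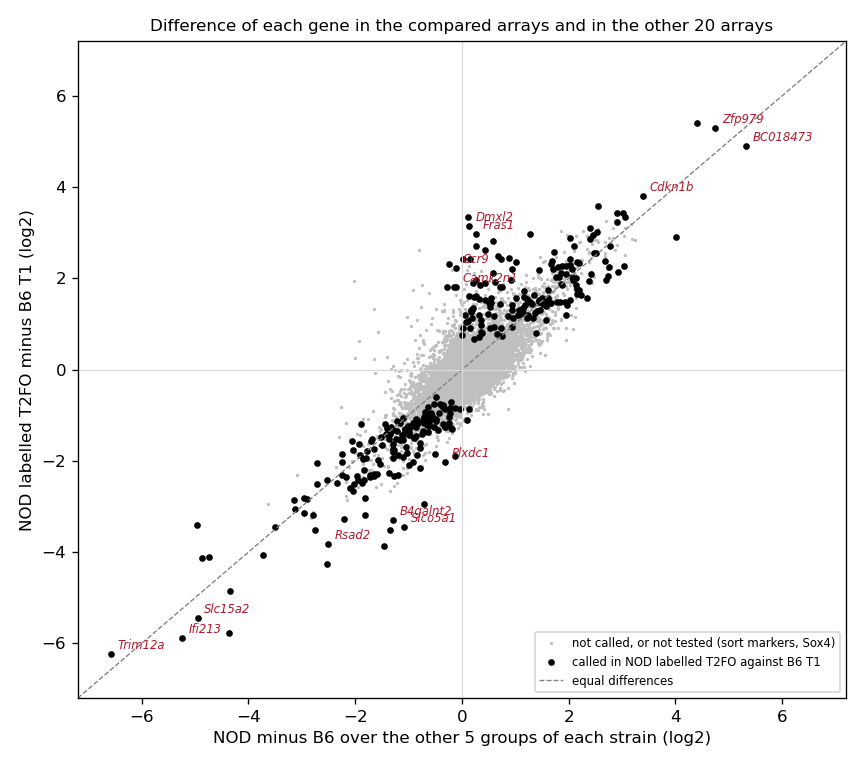
Each point is 1 of 18193 genes, plotted by its log2 difference NOD minus B6 over the other 5 groups of each strain (horizontal axis) and its log2 difference NOD labelled T2FO minus B6 T1 (vertical axis), with genes at an adjusted p under 0.05 in black. Most black points lie along the dashed line of equal differences, while Fras1, Dmxl2 and Ccr9 lie above it near 0 on the horizontal axis.

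The largest differences were lower signals in NOD. Trim12a, of the Trim5-like restriction factor cluster, read -3.36 and -2.85 in NOD labelled T2FO, against 3.10 and 3.17 in B6 T1, a difference of -6.24 ± 0.27 (SE, adjusted p = 1.5e-08). Ifi213, of the interferon-inducible Ifi200 cluster, read -2.84 and -3.23 in NOD labelled T2FO, against 2.55 and 3.16 in B6 T1, a difference of -5.88 ± 0.38 (adjusted p = 8.4e-07). Slc15a2, a peptide transporter, read -2.74 and -2.81 in NOD labelled T2FO, against 2.34 and 3.0 in B6 T1 (-5.44 ± 0.27, adjusted p = 5.5e-08). For each of these genes the groups lay far outside each other's spread, and the other 5 groups of each strain differed by -6.58, -5.25 and -4.95. Also lower were D17H6S56E-5 (-5.78), Snx6, a sorting nexin (-4.86), Lynx1 (-4.26), Arhgap26 (-4.13), Mir1931 (-4.10), Steap4, a metalloreductase (-3.88), and Rsad2 (-3.81).

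Among the genes higher in NOD labelled T2FO, Zfp979, a zinc finger gene, read 2.81 and 3.03, against -2.11 and -2.64 in B6 T1 (5.29 ± 0.40, adjusted p = 4.4e-06). BC018473 read 2.18 and 2.09 in NOD labelled T2FO, against -2.54 and -2.99 in B6 T1 (4.90 ± 0.27, adjusted p = 1.8e-07). Cdkn1b, which encodes the cyclin-dependent kinase inhibitor p27, read 2.27 and 1.85 in NOD labelled T2FO, against -1.84 and -1.66 in B6 T1 (3.81 ± 0.56, adjusted p = 0.0023). Mtrex, an RNA helicase of the nuclear exosome, had the largest difference of this direction and a wide error, 5.41 ± 1.27 (adjusted p = 0.0445). Aff3 (3.59), Rlf (3.44), the splicing factor gene Pnn (3.43), LOC664787 (3.34), Scaper (3.23) and Dmxl2 (3.14) followed. Within B6, FO replicate 2 and MZ replicate 2 had the highest 5' beta-actin control, 0.47 and 0.42. There Mtrex read -0.023 and -0.16, against -5.1 and -4.7 in B6 T1. Pnn read -0.052 and -0.59 there, against -2.70 and -2.73 in B6 T1. Cdkn1b (-0.68 and -0.82) and Aff3 (0.059 and -0.96) also read higher there than in B6 T1, where Aff3 had -1.4 and -1.2. Rlf read -0.38 and -1.7 there, against -2.0 and -1.7 in B6 T1. Scaper read -0.46 and -0.89 there, against -2.9 and -0.93 in B6 T1. Zfp979 (-2.3 and -2.1) and BC018473 (-3.1 and -2.6) stayed low on these arrays. With the 5' minus 3' beta-actin difference as a covariate, Mtrex differed by 4.38, Pnn by 2.81 and Cdkn1b by 3.47. In that fit Aff3 differed by 3.34, Rlf by 3.30, Zfp979 by 5.29 and BC018473 by 4.88. LOC664787 differed by 3.57, Scaper by 3.46 and Dmxl2 by 3.17. The part of the 5' signal in these readings was not itself tested.

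Many of these readings belong to single probe sets. Of 100 higher genes with a further probe set, 15 had one that also passed in the same direction, and 81 had one whose difference was below 25% of the main one or opposite. Among the lower genes with further probe sets, 27 of 110 and 83 of 110 did so. The further probe set of Trim12a gave -0.59, that of Cdkn1b -0.75, and those of Slc15a2 -0.33 and 0.046. Those of Mtrex gave -0.50 and 0.023, those of Pnn -0.53 and -0.21, and those of Rlf -0.19 and 0.17. That of Aff3 gave -0.53 and that of Scaper -0.54. Ifi213 (-2.05), D17H6S56E-5 (-5.16) and Lynx1 (-3.83) had a further probe set that passed. The probes of an array are fixed sequences, so a lower signal in one strain can be less transcript or a poorer match, which cannot be told apart here.

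The strain labels were read through Nnt, of which C57BL/6J mice carry a deletion. Nnt read 0.035 and 0.055 in NOD labelled T2FO, against -0.47 and -1.08 in B6 T1. The groups did not overlap, but the difference of 0.82 ± 0.42 did not pass (adjusted p = 0.60, limma), while Nnt was 1.03 higher in NOD over the other groups (adjusted p = 0.0017). The other 10 NOD arrays read -0.11 to 0.52. Most of the other 10 B6 arrays lay lower, down to -1.23, but B6 FO replicate 2 (0.30) and B6 MZ replicate 2 (0.033) read within the NOD range.

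The genes whose matched difference departed from that elsewhere fell into a pair high in NOD labelled T2FO and 3 genes high in B6 T1. Fras1, which encodes an extracellular matrix protein of basement membranes, read 2.42 and 2.89 in NOD labelled T2FO, against -0.30 and -0.34 in B6 T1 (2.98 ± 0.26, adjusted p = 1.7e-05). Over the other groups NOD exceeded B6 by 0.27, and the difference of differences was 2.71 ± 0.28 (adjusted p = 0.0010). The other 10 NOD arrays reached at most 1.04 for Fras1. Camk2n1, an inhibitor of calcium/calmodulin-dependent kinase II, read 1.56 and 1.95 in NOD labelled T2FO, against -0.10 and 0.010 in B6 T1 (1.80 ± 0.21, adjusted p = 3.4e-04). The other NOD arrays reached at most 0.50 for it, and the difference of differences was 1.92 ± 0.23 (adjusted p = 0.0042). The further probe sets gave 0.75 for Fras1 and 0.43 for Camk2n1 and did not pass.

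Plxdc1, Slco5a1 and B4galnt2 had their highest group mean in B6 T1. Plxdc1, a transmembrane protein first known from tumour endothelium, read 0.28 and 0.12 in NOD labelled T2FO, against 2.41 and 2.05 in B6 T1 (-2.03 ± 0.16, adjusted p = 5.5e-06). Slco5a1, of the organic anion transporter family, read 0.12 and -0.48 in NOD labelled T2FO, against 3.26 and 3.29 in B6 T1 (-3.45 ± 0.30, adjusted p = 1.7e-05). B4galnt2, a glycosyltransferase, read -0.36 and -0.70 in NOD labelled T2FO, against 2.84 and 2.71 in B6 T1 (-3.30 ± 0.25, adjusted p = 4.8e-06). In B6 the values were smaller in the later transitional groups. B6 T2FO had 1.03 and 1.07 for Plxdc1, 2.40 and 2.99 for Slco5a1, and 2.72 and 2.06 for B4galnt2. No NOD array outside the comparison was above 0.29 for Plxdc1, 0.21 for Slco5a1 or 0.18 for B4galnt2, so no NOD subset, whatever its label, came near the B6 T1 values. The differences of differences were -1.72 ± 0.17 (adjusted p = 0.0010), -2.37 ± 0.33 (adjusted p = 0.0126) and -2.01 ± 0.28 (adjusted p = 0.0126). Further probe sets gave 0.16 for Plxdc1, -0.70 for Slco5a1 and, over 3, -0.39 to 0.095 for B4galnt2, and none passed in the direction of the main one. With its probe sets averaged, the matched difference of B4galnt2 was -0.98 (adjusted p = 0.0010, limma), which is not the difference of differences. With the probe sets of each gene averaged, the difference of differences passed for 3 of the 5 genes, 2 higher and 1 lower. So only 1 of Plxdc1, Slco5a1 and B4galnt2 kept that call.

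**Figure D3:**
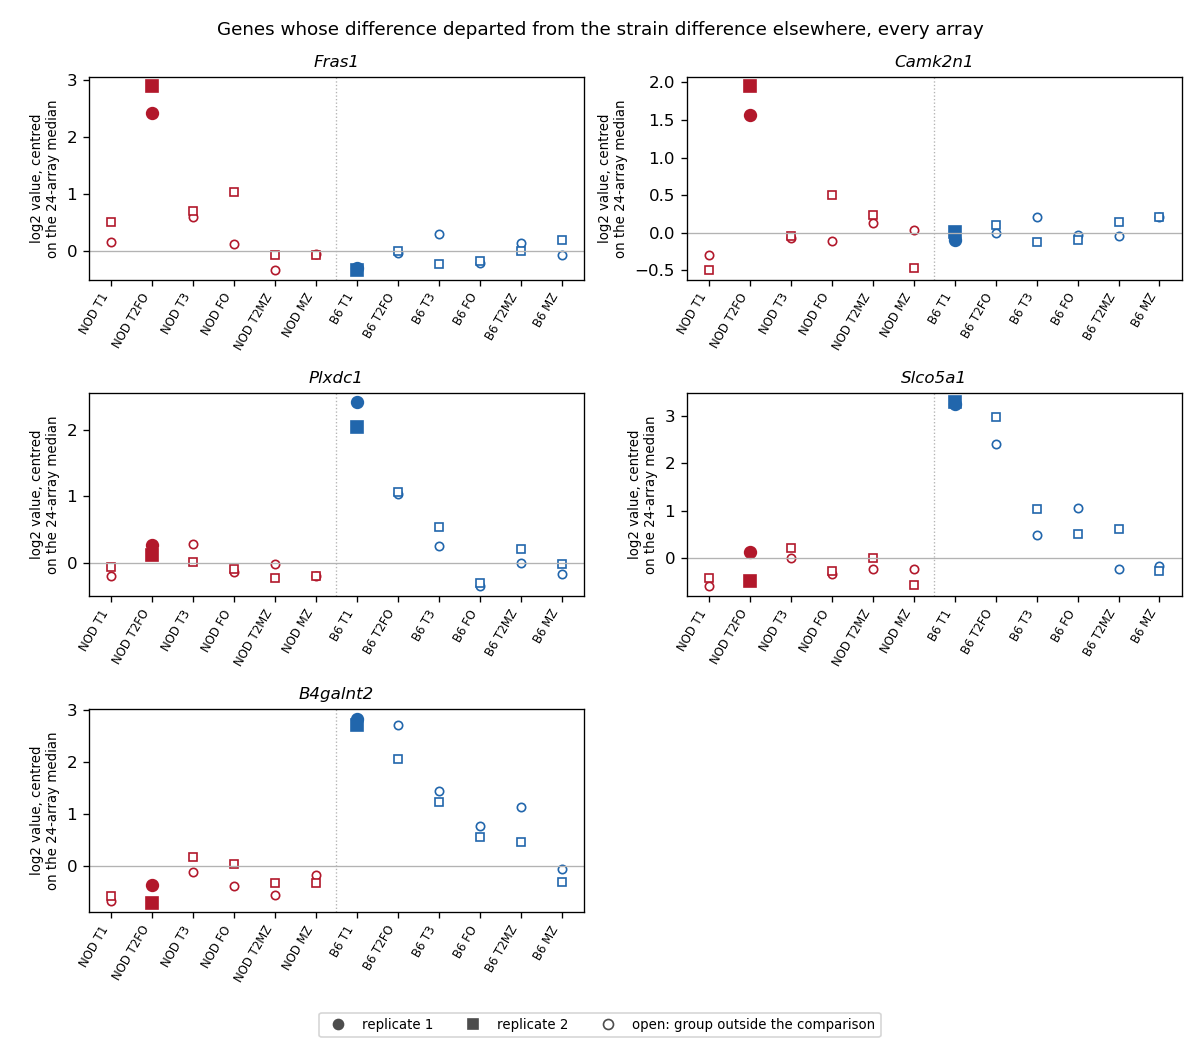
Centred log2 values of the 5 genes whose difference NOD labelled T2FO minus B6 T1 departed from the strain difference over the other groups, on each of the 24 arrays, NOD groups left of B6 groups, filled where the group is compared. Fras1 and Camk2n1 stand above 1.5 in both NOD labelled T2FO arrays only, while Plxdc1, Slco5a1 and B4galnt2 are highest in B6 T1 and B6 T2FO and stay below 0.3 in all NOD groups.

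Of 13 plasma cell genes, 4 rose in NOD labelled T2FO (Prdm1, Tnfrsf17, Slpi and Fkbp11). Plasma cells are the antibody-secreting end stage of B cells, and the list of 13 genes was measured in full. None fell and 9 did not pass. The share of all genes that were higher was 0.885%. The list had a median difference of 1.37, beside -0.026 over all genes. The list's median on each array was 1.12 and 1.59 in NOD labelled T2FO, against 0.25 and 0.41 in B6 T1. Over the other groups its median strain difference was 0.38.

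Prdm1, which encodes BLIMP1, the repressor that drives plasma cell formation, read 1.97 and 2.54 in NOD labelled T2FO, against -0.77 and 0.058 in B6 T1 (2.62 ± 0.50, adjusted p = 0.0152). Tnfrsf17, which encodes the plasma cell survival receptor BCMA, read 1.70 and 2.76 in NOD labelled T2FO, against 0.25 and 0.41 in B6 T1 (1.91 ± 0.30, adjusted p = 0.0041). Slpi, a secreted protease inhibitor, read 2.55 and 3.85 in NOD labelled T2FO, against 0.43 and 0.35 in B6 T1 (2.81 ± 0.57, adjusted p = 0.0205). Fkbp11, a peptidyl-prolyl isomerase of secretory cells, read 1.95 and 2.12 in NOD labelled T2FO, against 0.29 and 0.64 in B6 T1 (1.57 ± 0.37, adjusted p = 0.0465). In all 4 genes both NOD arrays lay above both B6 arrays, and above every other NOD array, whose highest values were 1.43 for Prdm1, 0.95 for Tnfrsf17, 1.41 for Slpi and 1.43 for Fkbp11. Fkbp11 had 2 further probe sets at -0.12 and -0.029.

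Other well known members of the list did not pass. Sdc1, the syndecan that defines plasma cells as CD138, read 1.88 and 2.60 in NOD labelled T2FO, against -0.059 and 0.81 in B6 T1 (1.86 ± 0.59, adjusted p = 0.17). Xbp1, the transcription factor of the secretory programme, differed by 1.37 ± 0.59 (adjusted p = 0.43), and Mzb1, an endoplasmic reticulum cofactor of antibody assembly, by 1.16 ± 0.35 (adjusted p = 0.15). Jchain, the joining chain of secreted IgM, read 3.58 and 4.13 in NOD labelled T2FO, against 1.80 and 2.95 in B6 T1, and its difference of 1.48 ± 1.72 was within its error. Irf4 (0.38), Ell2 (-0.088) and Pou2af1 (-0.20) did not pass either. No member passed limma's test of the matched difference against the difference elsewhere (5 at an unadjusted p under 0.05), the smallest adjusted p being 0.17 for Tnfrsf17.

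The immunoglobulin genes did not move as a group. Of 21 measured without Ighm, 2 rose, both kappa variable genes, beside 0.885% of all genes higher, and the median difference was 0.16. The first rose by 3.34 ± 0.54 (adjusted p = 0.0044, limma) and the other, Igkv6-20, by 1.47 ± 0.33 (adjusted p = 0.0340). The plasma cell count rests on both replicates. It was 3 without NOD labelled T2FO replicate 1, 0 without NOD labelled T2FO replicate 2, 0 without B6 T1 replicate 1, and 2 without B6 T1 replicate 2, the array with the low 5' signal. Without that array Prdm1 differed by 3.03 (adjusted p = 0.0315) and Tnfrsf17 by 1.99 (adjusted p = 0.0300). In sorted bulk cells, a few more plasma cells among the sorted cells and more of these transcripts per cell cannot be told apart.

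**Figure D4:**
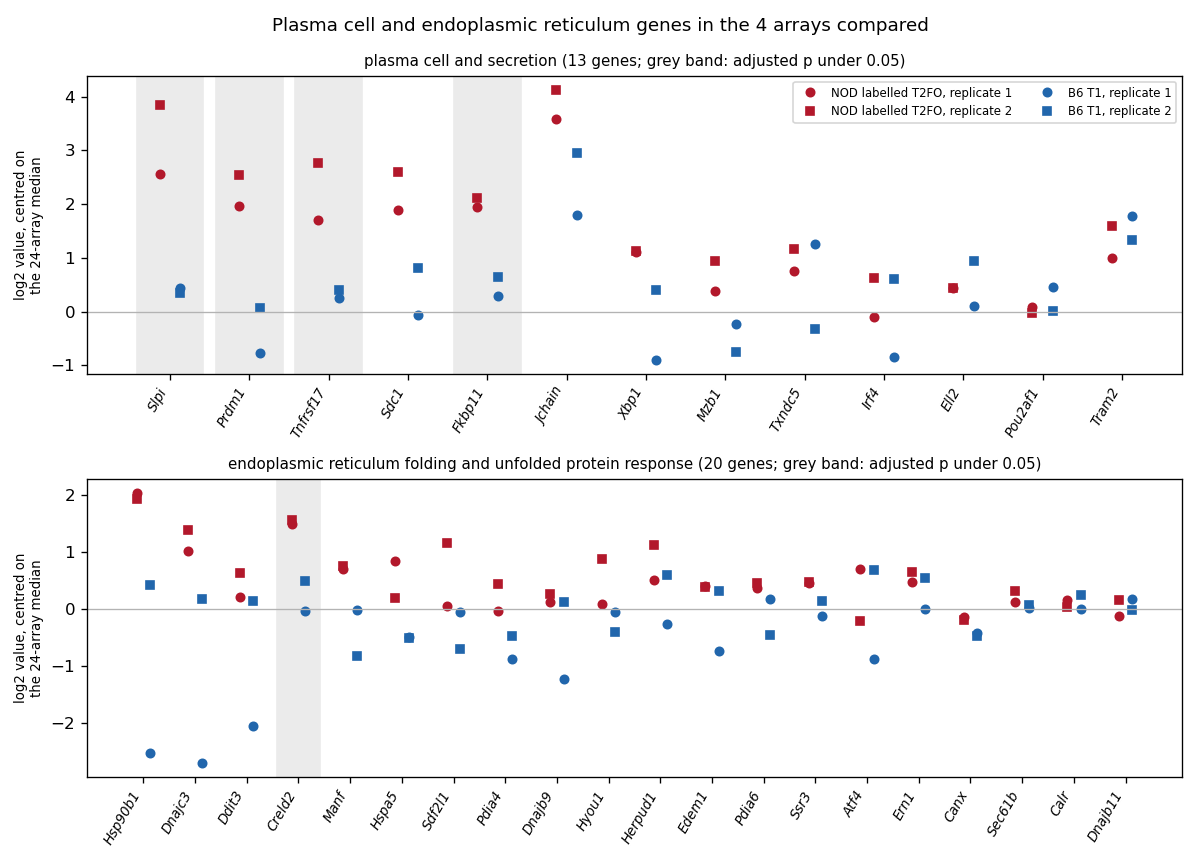
Centred log2 values of the 13 plasma cell genes (upper) and 20 endoplasmic reticulum genes (lower) on the 2 NOD labelled T2FO arrays (red) and the 2 B6 T1 arrays (blue), ordered by their difference, with grey bands at an adjusted p under 0.05. Both NOD arrays lie above both B6 arrays for 8 of the 13 plasma cell genes, as for 14.3% of all genes, but only 4 pass, and 1 endoplasmic reticulum gene passes.

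The endoplasmic reticulum list holds chaperones, disulphide isomerases and sensors of the unfolded protein response, the programme that enlarges folding capacity in secretory cells. All 20 were measured. Of the 20, 1 rose and 0 fell, beside 0.885% of all genes higher, and 18 had a positive difference. The median was 0.68, beside 0.29 over the other groups, and 0.32 without B6 T1 replicate 1. Creld2, a secreted folding factor, read 1.49 and 1.57 in NOD labelled T2FO, against -0.036 and 0.49 in B6 T1 (1.30 ± 0.22, adjusted p = 0.0071). Hspa5, the BiP chaperone, read 0.84 and 0.20 in NOD labelled T2FO, against -0.50 and -0.52 in B6 T1, and its difference of 1.02 ± 0.51 did not pass (adjusted p = 0.56). Hsp90b1, the GRP94 chaperone, had the largest difference of the list, 3.04 ± 1.16, and did not pass (adjusted p = 0.32), and its B6 T1 arrays lay far apart at -2.54 and 0.42. Creld2 did not pass without NOD labelled T2FO replicate 2 or without B6 T1 replicate 1.

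Promoters of this list were searched for the endoplasmic reticulum stress element, because the list holds its classical targets and Creld2 was the member that rose. In the 250 bases before the gene start (RefSeq, GRCm38.p6), CCAAT and CCACG parted by any 9 bases, on either strand, occurred in 7 of the 18 members with a promoter sequence (Creld2, Hspa5, Hsp90b1, Pdia6, Dnajc3, Calr and Canx) and in 37 of 32851 promoters (0.113%). The stretches of Creld2, Hspa5 and Hsp90b1 are printed 5′ to 3′ on the strand of the gene, with the match in capitals. The match of Creld2 lies on the opposite strand, that of Hspa5 on the strand of the gene, and the capitals of Hsp90b1 mark 1 of its 2 matches.
Creld2, chr15:88819490-88819568, plus strand: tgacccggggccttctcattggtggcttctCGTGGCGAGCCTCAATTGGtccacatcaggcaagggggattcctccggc
Hspa5, chr2:34771995-34772073, plus strand: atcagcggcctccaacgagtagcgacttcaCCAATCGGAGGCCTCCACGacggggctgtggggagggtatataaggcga
Hsp90b1, chr10:86705608-86705686, minus strand: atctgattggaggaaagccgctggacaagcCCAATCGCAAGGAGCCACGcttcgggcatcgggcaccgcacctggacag
A member counted if any of its promoters matched, while the share of 0.113% counts single promoters. A match describes these letters only. It was present alike in the member that rose and in 6 members that did not pass.

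Of 17 interferon response genes measured, 5 fell in NOD labelled T2FO (Rsad2, Rtp4, Eif2ak2, Ifih1 and Oas2). Interferon binds its receptor and switches on genes that hold back viruses. The list held 20 genes, and of the 17 measured 0 rose and 12 did not pass. The share of all genes that were lower was 0.907%. The list had a median difference of -1.88, beside -0.026 over all genes. The list's median on each array was 0.0011 and -0.91 in NOD labelled T2FO, against 1.33 and 1.73 in B6 T1. In the other groups of the strains 9 members were lower and 2 higher in NOD, with a median of -0.91, and no member passed limma's test of the matched difference against it (1 at an unadjusted p under 0.05).

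Rsad2, which encodes the antiviral enzyme viperin, read -0.027 and -0.82 in NOD labelled T2FO, against 3.06 and 3.72 in B6 T1 (-3.81 ± 0.46, adjusted p = 4.6e-04). Rtp4, an interferon-induced receptor transporter, read 0.0011 and -2.26 in NOD labelled T2FO, against 1.73 and 2.39 in B6 T1 (-3.19 ± 0.65, adjusted p = 0.0208). Eif2ak2, the double-stranded RNA kinase PKR, read -0.43 and -0.51 in NOD labelled T2FO, against 2.27 and 1.41 in B6 T1 (-2.32 ± 0.50, adjusted p = 0.0292). In these genes both groups were apart, and the second NOD array was below the first. Further probe sets gave -2.93 and -0.39 for Rsad2, of which 1 passed. Those of Eif2ak2 gave -0.14 and 0.036, and that of Rtp4 -0.53, and none of these passed. With probe sets averaged, Eif2ak2 differed by -0.81 and did not pass (adjusted p = 0.092, limma). Rtp4 averaged to -1.86 and Rsad2 to -2.38, and both passed.

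Ifih1, which encodes the RNA sensor MDA5, read -0.33 and -1.25 in NOD labelled T2FO, against 1.12 and 1.87 in B6 T1 (-2.28 ± 0.53, adjusted p = 0.0424). Oas2, an oligoadenylate synthetase, read 0.22 and -0.24 in NOD labelled T2FO, against 1.68 and 1.95 in B6 T1 (-1.82 ± 0.42, adjusted p = 0.0420). Usp18 (-2.86), Ifit2 (-2.48), Ifit1 (-2.27), Ifit3 (-1.99), Oasl2 (-1.88) and Mx1 (-1.79) had large differences that did not pass, with NOD arrays that were far apart. Usp18, which cleaves ISG15 from proteins, had 0.30 and -2.06 in NOD labelled T2FO, against 2.23 and 1.73 in B6 T1. The transcription factors of the pathway differed less, Irf7 by -0.91 ± 0.67, Irf9 by -0.70 ± 0.41 and Stat2 by 0.48 ± 0.41, and none of these passed. The count of 5 was 7 without NOD labelled T2FO replicate 1 and 1 without any one of the other 3 arrays.

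**Figure D5:**
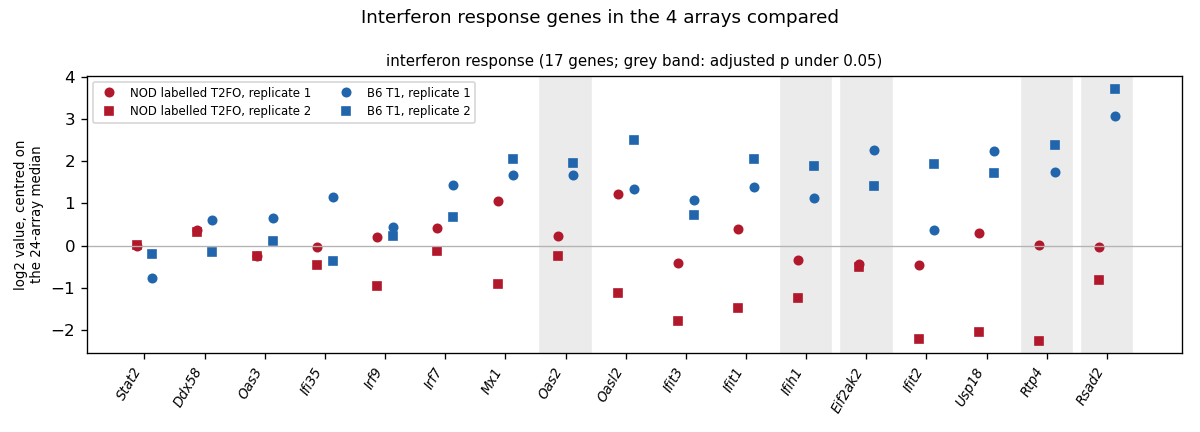
Centred log2 values of the 17 interferon response genes on the 2 NOD labelled T2FO arrays (red) and the 2 B6 T1 arrays (blue), ordered by their difference, with grey bands at an adjusted p under 0.05. NOD replicate 2 lies below replicate 1 for most genes on the right, and both NOD arrays lie below both B6 T1 arrays for 14 of the 17, as for 18.7% of all genes, of which the 5 in grey bands pass.

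The interferon-stimulated response element, GAAA, any 2 bases and GAAA again on either strand, is the textbook site of this list. It occurred within 250 bases before the start in 5 of the 13 members with a promoter sequence (Rsad2, Stat2, Oas3, Ifit1 and Ifit3) and in 978 of 32851 promoters (2.98%). Stretches of Rsad2, which fell, and of Ifit1 and Ifit3, which did not pass, are printed 5′ to 3′ on the strand of the gene (RefSeq, GRCm38.p6). The capitals mark the matches, which lie on the opposite strand.
Rsad2, chr12:26456533-26456602, minus strand: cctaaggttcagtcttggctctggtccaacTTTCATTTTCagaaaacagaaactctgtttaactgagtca
Ifit1, chr19:34640755-34640843, plus strand: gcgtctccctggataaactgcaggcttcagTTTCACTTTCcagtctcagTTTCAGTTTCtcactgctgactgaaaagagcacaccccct
Ifit3, chr19:34583343-34583446, plus strand: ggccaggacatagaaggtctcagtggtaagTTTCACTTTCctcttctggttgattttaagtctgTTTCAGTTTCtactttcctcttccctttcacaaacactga
A member counted if any of its promoters matched, while the share of 2.98% counts single promoters. Rsad2 has 1 match and both Ifit genes have 2 each. Of the 5 members with these letters, Rsad2 fell and the other 4 did not pass.

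Members of the Trim12, Trim30 and Ifi200 gene clusters, which are known to differ between mouse strains, were listed apart from the interferon response, with Nnt. Of 8 measured, 3 fell, beside 0.907% of all genes lower: Trim12a and Ifi213, given above, and Trim30d, which read -0.23 and -0.29 in NOD labelled T2FO, against 0.82 and 1.22 in B6 T1 (-1.28 ± 0.27, adjusted p = 0.0250). Without B6 T1 replicate 2 Trim30d did not pass (adjusted p = 0.18). It differed by -0.21 over the other groups and did not pass there.

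Few stage genes other than those of the sort passed. Of 17 immature and transitional genes without the sort transcripts and Sox4, 1 fell, beside 0.907% of all genes lower. None rose, and the median was -0.041. The gene that fell was Rag1, a subunit of the V(D)J recombinase, which read 0.13 and 0.044 in NOD labelled T2FO, against 1.08 and 0.78 in B6 T1 (-0.84 ± 0.18, adjusted p = 0.0288). It did not pass without B6 T1 replicate 2 (-0.99, adjusted p = 0.0561). Its partner Rag2 (0.39 ± 0.26), the surrogate light chain genes Vpreb1 (-0.55 ± 0.20) and Igll1 (-0.64 ± 0.58) and the transcription factor gene Myb (0.071 ± 0.44) did not pass. Of 10 follicular and 14 marginal zone genes without sort transcripts, 0 passed in either direction (limma, 0 and 3 at an unadjusted p under 0.05), with medians of 0.083 and 0.28. The follicular Ccr7 (0.83 ± 0.60) and the marginal zone Dtx1 (1.25 ± 0.36) were among them, with adjusted p of 0.82 and 0.12. The further probe set of Dtx1 gave -1.01, and its probe sets averaged to 0.12.

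The B-1 list was small and had no call (limma, 2 at an unadjusted p under 0.05). B-1 cells are a self-renewing B cell lineage of the body cavities and spleen. Of its 6 genes the median difference was 0.81, with Zbtb32 at 1.26 and 1.63 in NOD labelled T2FO, against 0.23 and 0.28 in B6 T1 (1.19 ± 0.29, adjusted p = 0.0526), and Cd5 at 1.24 and 1.11 in NOD labelled T2FO, against -0.026 and 0.21 in B6 T1 (1.09 ± 0.50, adjusted p = 0.51). The further probe set of Zbtb32 gave -0.13, and its probe sets averaged to 0.53.

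Signalling and survival genes gave single calls, beside 0.885% of all genes higher and 0.907% lower. None of 18 B cell receptor signalling genes, 10 inhibitory coreceptors, 11 BCL2 family genes, 13 MHC class II and costimulation genes, 17 migration genes or 19 cell cycle genes passed (limma, 1, 2, 1, 2, 3 and 0 at an unadjusted p under 0.05), with medians between -0.031 and 0.45. H2-Aa, an MHC class II chain, differed by 2.15 in its chosen probe set (adjusted p = 0.34), but by -3.48 in the one of largest SD, which passed (adjusted p = 5.3e-04). Ikbke, a kinase of the NF-kB and interferon pathways, rose among 13 BAFF, NF-kB and survival genes, with -0.30 and -0.013 in NOD labelled T2FO, against -1.98 and -1.27 in B6 T1 (1.47 ± 0.32, adjusted p = 0.0289). Tlr6, a receptor for bacterial lipopeptides, rose among 15 Toll-like receptor genes (1.14 ± 0.21, adjusted p = 0.0114). Ikzf3, which encodes Aiolos, rose among 16 B lineage transcription factors (2.25 ± 0.52, adjusted p = 0.0422), with further probe sets at 0.27 and 0.50. Sqle, squalene epoxidase of sterol synthesis, fell among 10 lipid genes (-1.26 ± 0.30, adjusted p = 0.0449), and Cdkn1b was the call among 10 cyclins D and inhibitors. Ikbke, Tlr6, Ikzf3, Sqle and Cdkn1b also passed over the other groups of the strains. Their differences there were 0.51, 1.23, 2.76, -1.33 and 3.39.

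A pair of stress-related lists had positive medians and no call (limma, 1 and 2 members at an unadjusted p under 0.05). Of 15 immediate early genes, 14 had a positive difference, with a median of 1.03, beside -0.17 over the other groups. The median was 0.37 without B6 T1 replicate 1, and Junb (1.98 ± 1.25), Dusp1 (1.76 ± 1.51) and Jun (1.44 ± 1.27) had standard errors above 1. All 10 heat shock chaperones had a positive difference, with a median of 0.85, which was 0.53 without NOD labelled T2FO replicate 2. Hspb1 came nearest to the threshold, with 0.55 and 1.03 in NOD labelled T2FO, against -0.0065 and -0.15 in B6 T1 (0.87 ± 0.23, adjusted p = 0.0767). B6 T1 replicates lay far apart for some of these genes, such as Hsp90aa1 at -3.27 and 0.32.

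Markers of other cells gave 1 call. No T cell, myeloid, neutrophil, NK, or erythroid and platelet gene passed, of 9, 12, 8, 7 and 8 measured (limma, 1 T cell gene and 0 of the others at an unadjusted p under 0.05), and the medians lay between -0.23 and 0.043. The T cell gene was Cd3g, at 0.76 and 1.69 in NOD labelled T2FO, against -0.20 and -0.32 in B6 T1 (1.49 ± 0.56, adjusted p = 0.32). Cd2 of that list differed by -0.87 ± 0.44, and of its 9 genes 6 had a positive and 3 a negative difference. The T cell list had array medians of -0.060 and 0.50 in NOD labelled T2FO, against 0.0041 and 0.16 in B6 T1, so NOD replicate 2, which was also highest for the plasma cell list, was highest here. Its part in the plasma cell differences was not tested. Of 7 dendritic cell genes 1 rose, beside 0.885% of all genes higher. It was Ccr9, the receptor for the gut chemokine CCL25. Ccr9 read 2.42 and 2.41 in NOD labelled T2FO, against -0.056 and 0.44 in B6 T1 (2.22 ± 0.53, adjusted p = 0.0482, limma). Siglech (-0.23), Flt3 (0.17) and Xcr1 (0.14) of the same list did not pass. The 4 further probe sets of Ccr9 gave 0.0046 to 0.65.

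Within the 51 genes that passed in the matched groups and not elsewhere, the largest were those of the first kappa variable gene, Dmxl2 and Fras1. Dmxl2, a regulator of the vacuolar proton pump, read 3.07 and 3.26 in NOD labelled T2FO, against 0.043 and 0.0082 in B6 T1 (3.14 ± 0.51, adjusted p = 0.0047), with 0.14 over the other groups. A single further NOD array, NOD labelled FO replicate 2, read 2.55. The difference of differences of Dmxl2 was 3.0 ± 0.56 (adjusted p = 0.13). Prdm1, Tnfrsf17, Slpi, Creld2 and Ccr9 were also among them. Chosen after their values were seen, Chst1, a sulphotransferase (2.42 ± 0.37, adjusted p = 0.0033), Pbx3, a homeobox factor (1.82 ± 0.32, adjusted p = 0.0078), and Pxdc1 (-1.30 ± 0.20, adjusted p = 0.0037) had some of the smallest adjusted p of this set.

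Matching by label would have given other partners, which share arrays with the comparison above and are set beside it with no test. Cd93 differed by -2.85 between NOD labelled T2FO and B6 T1, by -2.54 between NOD labelled T2FO and B6 T2FO, and by -5.15 between NOD labelled T1 and B6 T1. Prdm1 differed by 2.62, 2.71 and 1.67 in the same order, Tnfrsf17 by 1.91, 2.24 and -0.41, and Slpi by 2.81, 3.37 and -0.64. Rsad2 differed by -3.81, -2.92 and -4.06, and Plxdc1 by -2.03, -0.85 and -2.35. Prdm1, Tnfrsf17 and Slpi thus had the same sign against either B6 group, and Rag1, with -0.84, -0.045 and -0.99, was near 0 against B6 T2FO.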

How the data were processed

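RNA of sorted splenic B cells was labelled in an amplification primed from the poly(A) tail and hybridised to mouse genome arrays, per the labels' protocols. RMA is the tool that the submitters' processing notes name for the authors' deposited values, which were read as log2 values. No source used here states the base of the logarithm, so base 2 is an assumption. Each probe set was found centred on its median over the 24 arrays, so no level, no signal over background and no filter on dim probes could be had. The number of arrays limits the precision.

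Of 45101 probe sets, 64 were controls, 34945 had 1 gene, 932 several and 9160 none in the platform's annotation. Of those with 1 gene, 34741 matched the GRCm38.p6 gene table by gene number, and 0 symbols changed. Each of 18193 genes was read by the probe set with the largest SD over the 20 arrays outside the comparison, after each strain's mean was subtracted.

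All 24 arrays entered a group-means model of the 12 groups in limma 3.58.1 (R 4.3.3), followed by contrasts, eBayes and Benjamini-Hochberg adjustment over all genes, and adjusted p under 0.05 counted as passed. The contrasts were NOD T2FO minus B6 T1, NOD minus B6 over the other 5 groups of each strain, and the first minus the second. Arrays of 1 pool are not independent, which the standard errors do not count. Arrays of a strain with the same replicate number were assumed to share a pool, and their correlation was 0.116. The 5' beta-actin control did not follow these numbers in B6. There FO and MZ replicate 1 (-3.51 and -3.47) lay near T1 replicate 2 (-3.65) and not replicate 1 (-0.77). Errors beside differences are standard errors. The fit was tested on simulated data with independent normal noise and 1 spread per gene in all arrays. There 36.4% of set changes of 1 on the log2 scale passed, 92.5% of those of 2 and 97% of those of 3. That noise held no pool correlation, no 5' effect and no unequal spread between groups, so these shares do not cover them.

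The groups, the 28 gene lists and the markers were chosen with earlier results of these data known, and support for a list is described by counts and medians only. Named genes are the 10 largest differences each way that passed with no overlap (for the third contrast all that passed, up to 8 each way), up to 4 passing members of each list with the smallest adjusted p or up to 2 where none passed, the sort transcripts, Sox4 and Nnt. Immunoglobulin and predicted genes were kept out of the largest differences. Further list members are named to describe their list, and Chst1, Pbx3, Pxdc1 and 2 immunoglobulin genes were described after their values were seen. Alternatives were other probe set choices, array scaling, a 5' signal covariate, fewer arrays, blocks for pool and replicate number, array weights, a robust prior and a variance filter. Promoters are RefSeq sequences of GRCm38.p6. Plots used Python 3.11.15 and matplotlib 3.10.9.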

Additional observations from a re-analysis of the deposited data

Results flagged for a closer look

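The difference between NOD labelled T2FO and B6 T1 departed from the strain difference in the other groups for 5 genes, by a test of the difference of differences itself (limma, Benjamini-Hochberg adjusted over 18193 genes). It was 2.71 for Fras1 and 1.92 for Camk2n1, both high in the NOD labelled T2FO arrays. It was -1.72 for Plxdc1, -2.01 for B4galnt2 and -2.37 for Slco5a1, all high in the B6 T1 arrays. Leaving out single arrays left between 2 and 19 genes past this test, with 2 without NOD labelled T2FO replicate 2 and 2 without B6 T1 replicate 1.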

How the results depend on the processing

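With 326 genes passing between NOD labelled T2FO and B6 T1, the count was 666 with the probe set of largest SD over all 24 arrays, 1861 with the 5' minus 3' beta-actin difference as covariate (768 higher, 1093 lower) and 1 with only the 4 arrays compared, where few residual degrees of freedom remain. It ranged from 92 to 336 when single arrays were left out, each lone array being assumed to vary like the other groups. With the replicate block it was 388 (192 higher, 196 lower), but the numbers pair pools of different strains (correlation of same-numbered deviations -0.15). A crossed pairing, added after seeing the data, gave 355. Without replicate 2 of B6 FO and MZ, also added after seeing the data, it was 359. The strain difference in the other groups, 2759 genes, passed for 4857 with the covariate (2161 higher and 2696 lower, against 1564 and 1195). It passed for 1719 with a random block for the pool, where the pool was assumed from the replicate number. The 5 genes of the difference of differences became 3 when all probe sets of a gene were averaged, and 11 with the covariate, and 2 to 19 without single arrays. Of 43 named genes that passed, 43 kept their direction under the alternatives that hold them, and 23 to 30 still passed without single arrays. Among genes that had not passed, Bcl2 turned to -0.69 and H2-Aa to -3.48, which passed (adjusted p = 5.3e-04, limma; 2.15 in the chosen probe set), with the probe set of largest SD over all arrays, H2-Aa to -0.47 when its probe sets were averaged, while without single arrays Camp ranged from -0.27 to 1.24 and Hba-a1 from -0.080 to 0.44, below 0 without NOD labelled T2FO replicate 2. The causes of these shifts were not tested. With 2 arrays a group and no signal over background, small differences and dim genes are out of reach.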
